A study of Mus musculus with 23 samples.

Results

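Cxcl9, Cd274, Lag3, Cd8a and Foxp3 were followed across 23 mouse mammary carcinomas. They are 5 genes of T cell recruitment, T cell restraint and T cell identity, taken by symbol from a panel of 3826 genes. All 5 were found. The first 4 passed the filter on low counts, and Foxp3 did not. Of the tumours, 12 came from mice given abemaciclib, a drug that blocks the cell-cycle kinases CDK4 and CDK6, and 11 from mice given vehicle. Doxycycline was started in all animals at 6 weeks of age to induce tumours, and treatment was assigned once tumours were established. Abemaciclib was given by gavage at 90 mg/kg each day, and tissue was frozen after 12 doses. The sources used here give neither the strain nor what doxycycline induced, nor the promoter that drives it. Tumours are numbered in the sample titles with no animal named, so p-values measure the spread between these tumours.

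Each gene was read through 1 short amplicon, so the part of the transcript that was counted is small, and reads of different genes cannot be set against each other as levels. Libraries held 2756919 to 4990391 reads with abemaciclib and 3044380 to 4492736 with vehicle. All 7 luminal epithelial markers on the panel were read in all 23 tumours. Their summed level was 5064 to 11630 CPM (reads scaled to a common library total) in abemaciclib tumours and 5797 to 8371 CPM in control tumours. Of 14 T cell markers on the panel, 0 were at 0 in all tumours. In bulk tissue, fewer cells of a type and less RNA per cell cannot be told apart.

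CXCL9 is a chemokine that myeloid and other cells secrete in response to interferon gamma, and it draws activated T cells that carry the receptor CXCR3. Cd274 encodes PD-L1, the ligand of the inhibitory receptor PD-1, and interferons also induce it. Lag3 encodes an inhibitory receptor of activated T cells that binds MHC class II. Cd8a encodes a chain of the CD8 co-receptor of cytotoxic T cells, and Foxp3 encodes the factor that defines regulatory T cells.

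In mm10 coordinates (GENCODE M21 annotation), Cxcl9 lies on chromosome 5 at 92321347 to 92328079, on the minus strand. Cd274 lies on chromosome 19 at 29367455 to 29388095. Lag3 and Cd8a lie far apart on chromosome 6, at 124904361 to 124911705 and at 71373427 to 71379173. Foxp3 lies on the X chromosome at 7573644 to 7595245. All 5 are annotated as protein coding. The other CXCR3 ligands neighbour Cxcl9, with Cxcl10 at 92346638 to 92348889 and Cxcl11 at 92359544 to 92365485. Cxcl11 is annotated as a polymorphic pseudogene.

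The 250 bases before the RefSeq transcription start (build GRCm38.p6, given 5′ to 3′ on the gene's strand) are shown for Cxcl9 and Cxcl10, neighbours that were high in the same tumours, and for Cd274. Capitals mark a match to the interferon regulatory factor motif, GAAA, any 2 bases and GAAA again, searched on both strands.
Cxcl9, chr5:92328080-92328329, minus strand: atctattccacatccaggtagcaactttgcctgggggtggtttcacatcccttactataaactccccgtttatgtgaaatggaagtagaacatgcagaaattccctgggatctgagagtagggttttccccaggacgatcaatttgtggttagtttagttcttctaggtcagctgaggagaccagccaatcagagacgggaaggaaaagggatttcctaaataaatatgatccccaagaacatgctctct
Cxcl10, chr5:92348890-92349139, minus strand: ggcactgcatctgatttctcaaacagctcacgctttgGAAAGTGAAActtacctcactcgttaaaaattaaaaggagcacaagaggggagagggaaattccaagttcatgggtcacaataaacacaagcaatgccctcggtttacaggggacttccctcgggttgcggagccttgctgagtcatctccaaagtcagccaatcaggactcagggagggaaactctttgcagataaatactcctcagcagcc
Cd274, chr19:29367188-29367437, plus strand: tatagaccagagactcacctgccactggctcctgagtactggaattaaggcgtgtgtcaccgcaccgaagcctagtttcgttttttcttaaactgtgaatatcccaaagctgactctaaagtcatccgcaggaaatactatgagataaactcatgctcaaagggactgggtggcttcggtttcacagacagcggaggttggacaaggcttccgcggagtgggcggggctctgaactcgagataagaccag

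The Cxcl10 window held 1 match, whose first base lies 213 bases before the start. The windows of Cxcl9 and Cd274 held none. A second motif, TTCNNNGAA, known from interferon gamma response elements, was searched in the same way and matched in none of the 3 windows. Of the 32851 RefSeq windows of this length, 2.98% held the first motif and 7.02% held TTCNNNGAA. A match is a run of letters and says nothing of binding in these tumours.

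The comparison of abemaciclib with vehicle asked whether the drug moved chemokine, checkpoint and T cell transcripts in tumours that had already formed. None of the 5 genes passed the threshold, an adjusted p under 0.05 by edgeR's quasi-likelihood test with Benjamini-Hochberg adjustment over all genes tested. That threshold was passed by 0% of the 2925 genes tested, and an unadjusted p under 0.05 by 13.4% of them, 7.59% with higher and 5.81% with lower levels in abemaciclib tumours. At that unadjusted level, Cxcl9 and Lag3 of the 4 members above the filter were higher with abemaciclib. DESeq2's Wald test called 2.05% of genes and limma-voom with quality weights 4.34%, with none of the 4 members among them. Without abemaciclib tumours 3 and 10, which held most of the Cxcl9 reads, edgeR called 3.18% of genes, again with no member among them.

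Cxcl9, the chemokine, spanned the widest range. In the abemaciclib group it had 44 reads in the lowest tumour, a median of 107.5 and 7523 reads in the highest. In the control group it had 13 reads in the lowest tumour, a median of 94 and 246 reads in the highest. The groups overlapped in all but 3 abemaciclib tumours, namely tumour 10 with 7523 reads, tumour 3 with 2716 and tumour 4 with 548. The other abemaciclib tumours, tumours 3 and 10 aside, had 44 to 548 reads.

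Tumours 3 and 10 held 87.6% of the Cxcl9 reads of the abemaciclib group. After scaling, Cxcl9 was at 217.7 ± 496 CPM in abemaciclib tumours (SD, n = 12) and at 24.3 ± 17.0 CPM in control tumours (SD, n = 11). The abemaciclib SD exceeded its mean. The median was 32.3 CPM in abemaciclib tumours and 24.2 CPM in control tumours, and 10 of 12 abemaciclib tumours lay above the control median.

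The fitted log2 fold change of Cxcl9 was 3.16 (SE 0.834, 95% interval 1.44 to 4.88, unadjusted p = 8.41e-04, adjusted p = 0.0872 by edgeR). Without tumours 3 and 10 it was 0.58 (95% interval -0.29 to 1.45, adjusted p = 0.514). These tumours ranked 2 and 1 for Cxcl9, so leaving them out had to lower the value. That fit describes their weight and is not a test of the drug. Without tumour 10 alone the log2 fold change was 1.73. DESeq2 gave 1.66 and limma-voom 1.10, with adjusted p = 0.115 and 0.366. In a fit without abemaciclib tumour 2, the one with the lowest CPM of Cxcl9 in its group, it passed the threshold at 3.28 (adjusted p = 0.0484 by edgeR), in a range of 0.0484 to 0.514 over all alternatives. Leaving out the lowest tumour had to raise the value. Of 2916 genes in that fit, 19 were called higher and 11 lower, against 0 with all tumours.

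**Figure D1:**
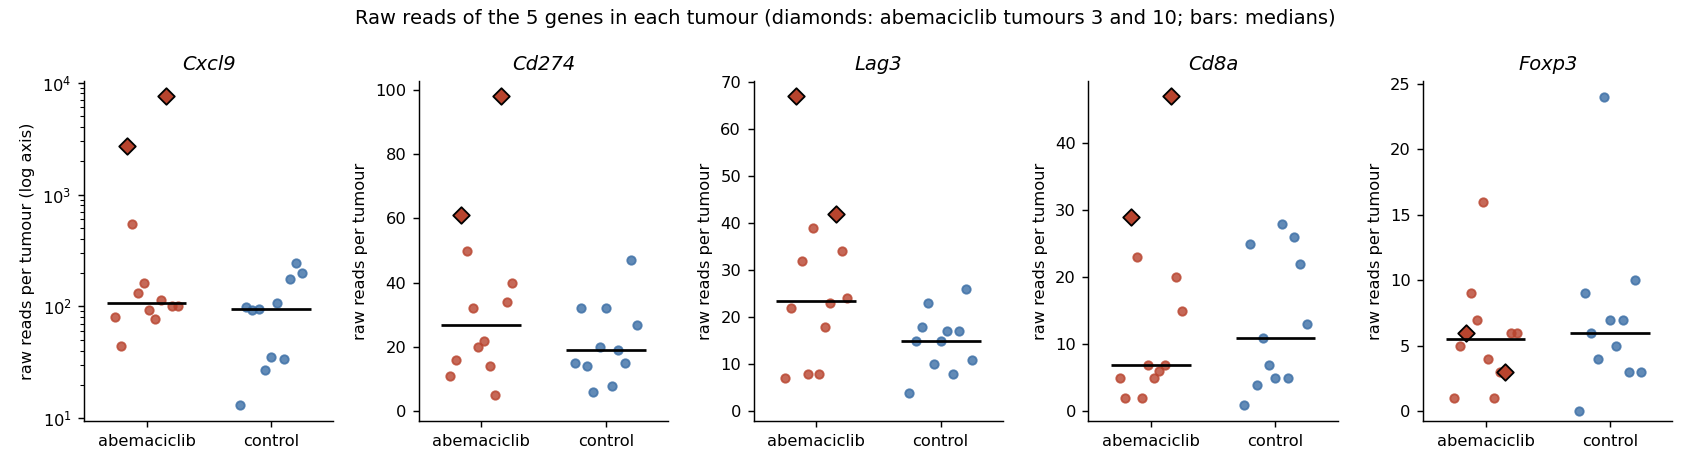
Raw reads (y axis, 1 panel a gene, log axis for Cxcl9 only) in each of 12 abemaciclib and 11 control tumours, with bars at the medians and diamonds for abemaciclib tumours 3 and 10. These tumours stand far above the others for Cxcl9, at 2716 and 7523 reads, are high for Cd274, Lag3 and Cd8a, and lie within the group for Foxp3, at 6 and 3 reads.

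Cd274, the PD-L1 gene, had 5 reads in the lowest abemaciclib tumour, a median of 27 and 98 reads in the highest. In control tumours the lowest had 6 reads, the median was 19 and the highest had 47. The groups overlapped along most of their range, with 4 abemaciclib tumours above every control tumour after scaling. These were tumours 10, 3, 12 and 4, at 22.5, 11.7, 10.3 and 10.1 CPM, against a control maximum of 9.68 CPM.

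Cd274 averaged 8.00 ± 5.57 CPM in abemaciclib tumours (SD, n = 12) and 5.19 ± 2.90 CPM in control tumours (SD, n = 11). By edgeR the log2 fold change of Cd274 was 0.64, with an SE of 0.355 (95% interval -0.096 to 1.37, adjusted p = 0.449). Without abemaciclib tumour 10 it was 0.38, and without tumours 3 and 10 it was 0.26 (95% interval -0.43 to 0.94). The interval with all tumours runs from just below 0 to 1.37, so it holds both no difference and a higher level with abemaciclib.

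Lag3, the inhibitory receptor, had 7 reads in the lowest abemaciclib tumour, a median of 23.5 and 67 reads in the highest. In control tumours it had 4 reads in the lowest, a median of 15 and 26 in the highest. After scaling, 7 of 12 abemaciclib tumours lay above every control tumour and 9 above the control median, while tumours 1, 5 and 7, at 2.39, 2.25 and 2.41 CPM, lay in the lower part of the control range of 1.15 to 5.93 CPM.

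Lag3 averaged 6.52 ± 3.45 CPM in abemaciclib tumours (SD, n = 12) and 3.64 ± 1.55 CPM in control tumours (SD, n = 11). Its log2 fold change was 0.85 (SE 0.309, 95% interval 0.21 to 1.48, unadjusted p = 0.0110, adjusted p = 0.206 by edgeR). Without tumours 3 and 10 the value was 0.61 (95% interval -0.029 to 1.24, adjusted p = 0.311). It stayed positive in every alternative run, from 0.61 to 0.94, with adjusted p from 0.134 to 0.311, and so did not pass in any of them.

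Cd8a, the cytotoxic T cell co-receptor, had 2 reads in the lowest abemaciclib tumour, a median of 7 and 47 reads in the highest. In control tumours the lowest had 1 read, the median was 11 and the highest had 28. By reads, abemaciclib tumours 10 and 3, with 47 and 29, lay above every control tumour, and after scaling tumour 10 alone did, at 10.8 CPM. The next highest after scaling were control tumours 7, 2 and 9, at 8.20, 6.39 and 5.65 CPM.

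Cd8a differed by 0.042 on the log2 scale (SE 0.474, 95% interval -0.93 to 1.02, adjusted p = 0.979 by edgeR). Without tumours 3 and 10 it was -0.47 (95% interval -1.44 to 0.50, adjusted p = 0.647). Its sign also turned with scaling to library totals, to -0.029, a scaling that moved the median of all genes by -0.12.

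Foxp3, the regulatory T cell factor, was the least read member. It had 1 read in the lowest abemaciclib tumour, a median of 5.5 and 16 reads in the highest. In control tumours it had 0 reads in the lowest, a median of 6 and 24 reads in the highest. The highest and the lowest tumour both belonged to the control group, tumour 5 with 24 reads and tumour 1 with 0, a count that allows up to 3 reads or 0.866 CPM by counting error alone.

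The filter set Foxp3 aside, and the same fit on all 3734 genes with any read put the difference at -0.24 on the log2 scale (SE 0.434, 95% interval -1.14 to 0.65, adjusted p = 0.853 by edgeR). In that fit, too, 0% of genes passed the adjusted threshold. Without control tumour 5 the value was 0.078. These values rest on 67 reads over all abemaciclib tumours and 78 over all control tumours. The interval of -1.14 to 0.65 holds both lower and higher levels with abemaciclib.

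**Figure D2:**
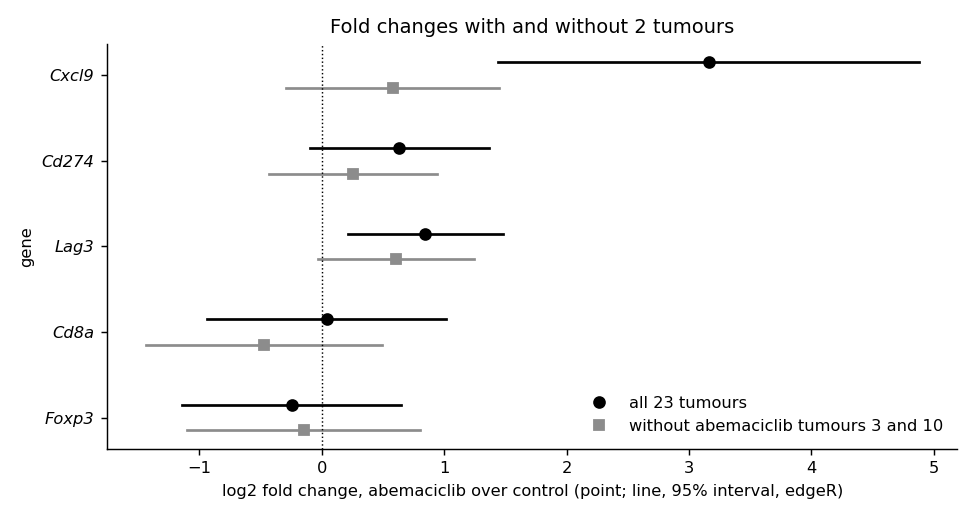
Log2 fold change of abemaciclib over control (x axis; points, edgeR estimates; lines, 95% intervals) for each gene (y axis), in black with all 23 tumours and in grey without abemaciclib tumours 3 and 10. For Cxcl9 the estimate is 3.16 with them and 0.58 without. The intervals of Cd274, Cd8a and Foxp3 include 0 with all tumours, and those of Cxcl9 and Lag3 only without tumours 3 and 10.

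The other genes of the CXCR3 chemokine axis were counted as a list of 10, all on the panel, of which 7 passed the filter. All 7 had positive log2 fold changes, 0 passed the adjusted threshold and 3 had an unadjusted p under 0.05 (Cxcl9, Cxcl10 and Ccl3). The median was 0.35, or 0.29 without Cxcl9, beside 0.0055 over all genes tested. Of all genes tested, 51.1% were positive and 7.59% were higher at that unadjusted level. Cxcl10, another CXCR3 ligand, had 517 reads in abemaciclib tumour 3 and 2010 in tumour 10, against 12 to 98 in the other 10 abemaciclib tumours and 7 to 97 in control tumours. Those tumours are the ones that stood out for Cxcl9.

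The log2 fold change of Cxcl10 was 2.66 (SE 0.796, adjusted p = 0.127 by edgeR), and 0.0091 without tumours 3 and 10. For Ccl3, an inflammatory chemokine of myeloid and T cells, it was 0.69 (SE 0.259, adjusted p = 0.213), and 0.79 without them. For Cxcr6, the receptor of CXCL16 on T cells, it was 0.35 (SE 0.298, adjusted p = 0.648). Cxcl11, the remaining CXCR3 ligand, had 385 reads in tumour 3, 1076 in tumour 10, 0 to 50 in the other abemaciclib tumours and 0 to 30 in control tumours. Cxcr3, the receptor of all these ligands, was barely read, with 0 to 3 reads in abemaciclib tumours and 0 to 4 in control tumours.

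Of 13 interferon gamma signalling genes, 9 were on the panel and 6 passed the filter. Their log2 fold changes were positive in 6 of 6, beside 51.1% of all genes tested. The median was 0.24, and 0.13 without tumours 3 and 10. By edgeR 0 passed the adjusted threshold and 1 was higher at an unadjusted p under 0.05, beside 7.59% of all genes tested.

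For Irf1, a transcription factor induced by interferons, the log2 fold change was 0.24 (SE 0.135, adjusted p = 0.463 by edgeR). Socs1, a feedback inhibitor of JAK kinases, was at 0.37 (SE 0.295, adjusted p = 0.620), and at -0.20 without tumours 3 and 10, which had 223 and 261 reads against 24 to 103 in the other abemaciclib tumours and 39 to 111 in control tumours.

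Ifng, the cytokine itself, had 0 reads in 10 of 12 abemaciclib tumours and in 8 of 11 control tumours, and at most 2 reads in an abemaciclib tumour and 3 in a control tumour. Tumour 3 had 1 read and tumour 10 had 0, which allows up to 3 reads or 0.688 CPM. Its level could therefore not be compared between the groups at this depth. Ido1, an interferon-induced enzyme that breaks down tryptophan, named after its values were seen, had 27 reads in tumour 3 and 23 in tumour 10. It had 0 or 1 read in the other 10 abemaciclib tumours and 0 to 2 in control tumours.

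**Figure D3:**
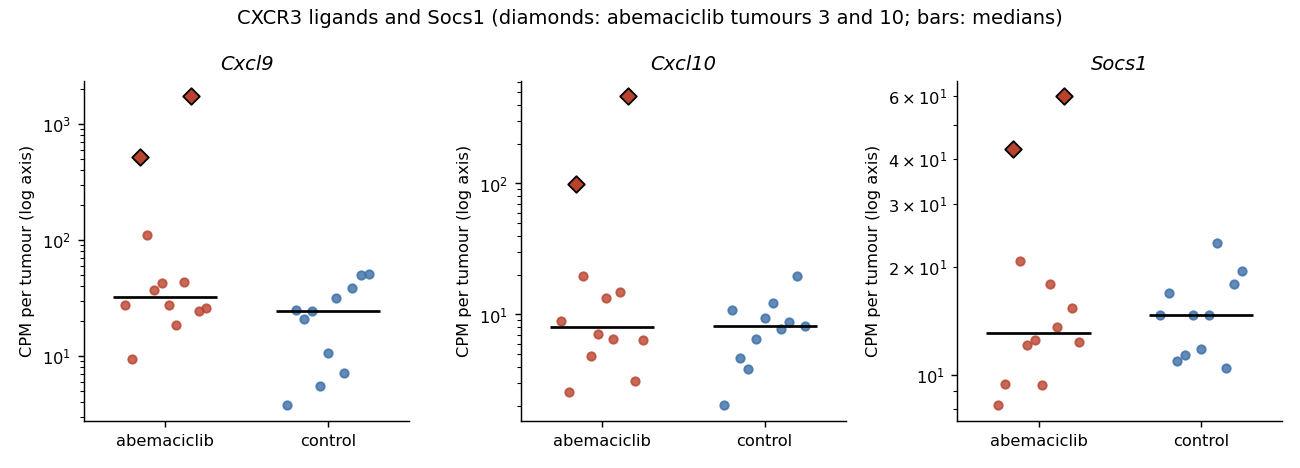
CPM (y axis, log axis) of Cxcl9, Cxcl10 and Socs1 in 12 abemaciclib and 11 control tumours, with bars at the medians and diamonds for abemaciclib tumours 3 and 10. These tumours are the highest of all for each gene, and the other abemaciclib tumours overlap the control tumours for Cxcl10 and Socs1.

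Of 18 checkpoint receptors and ligands, 10 were on the panel and 6 passed the filter. Of these, 5 were positive and 1 negative, with a median of 0.56, or 0.37 without Cd274 and Lag3. None passed the adjusted threshold, and Lag3, Tnfrsf14 and Havcr2 had an unadjusted p under 0.05. Over all genes tested, 51.1% were positive and 7.59% were higher at that unadjusted level. Tnfrsf14, the receptor HVEM that binds BTLA, was at 0.59 (SE 0.215, adjusted p = 0.206 by edgeR), with 11 of 12 abemaciclib tumours higher than the median control tumour. Havcr2, which encodes TIM-3 of T cells and myeloid cells, was at 0.54 (SE 0.229, adjusted p = 0.288), and Pvr, a ligand of TIGIT, at 0.20 (SE 0.170, adjusted p = 0.652). Without tumours 3 and 10 these 3 genes were at 0.62, 0.64 and 0.10.

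Pdcd1, the gene of PD-1, had 6 to 56 reads in abemaciclib tumours and 3 to 42 in control tumours, a difference of -0.12 on the log2 scale (SE 0.356, adjusted p = 0.918). Ctla4, another inhibitory receptor, had 0 to 2 reads in abemaciclib tumours and 0 to 4 in control tumours. Cd4, the helper T cell co-receptor, was at 0.40 (SE 0.276, adjusted p = 0.565), and Cd3e, a chain of the T cell receptor complex, at 0.31 (SE 0.401, adjusted p = 0.782). Cd3e was at 0.13 without abemaciclib tumour 10 and at 0.016 without tumours 3 and 10. Il2ra, the interleukin receptor chain that regulatory T cells carry, had 2 to 18 reads in abemaciclib tumours and 2 to 17 in control tumours.

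Marker lists give the leukocytes around the members. The T cell markers other than Cd8a summed to 164 to 476.5 CPM (median 302) in abemaciclib tumours and 161 to 288.5 CPM (median 212) in control tumours. Most of that sum was Thy1, which fibroblasts also express. Without Thy1, left out after its values were seen, the sums were 22.9 to 104 CPM (median 39.3) in abemaciclib tumours and 16.6 to 75.8 CPM (median 42.7) in control tumours. Tumour 10 was the highest of the 23 at 104 CPM and tumour 3 the sixth at 59.8 CPM. Abemaciclib tumour 4, which ranked 3 for Cxcl9, was at 38.6 CPM, below the control median.

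Macrophage markers, 6 of them, summed to 1907 to 4544 CPM (median 3001) in abemaciclib tumours and 1431 to 3013 CPM (median 2219) in control tumours. Dendritic cell markers, also 6, summed to 146 to 413 CPM (median 224) in abemaciclib tumours and 122 to 197 CPM (median 152) in control tumours. Nearly all of that sum was Irf8, Ly75 and Itgax, at means of 103, 50.9 and 37.7 CPM over the 23 tumours. Flt3, Xcr1 and Ccr7 were barely read, at 0.70, 0.52 and 1.15 CPM. All 6 macrophage and all 3 dendritic cell markers above the filter had positive log2 fold changes, with medians of 0.46 and 0.65. Of them, 4 and 3 had an unadjusted p under 0.05, while 0 passed the adjusted threshold by edgeR. Over all genes tested, 51.1% were positive and 7.59% were higher at that unadjusted level. Tumours 3 and 10 were 11th and 10th of 23 for macrophage markers and 6th and 7th for dendritic cell markers. Cytotoxic and natural killer markers summed to 3.66 to 19.4 CPM (median 10.1) in abemaciclib tumours and 5.19 to 26.3 CPM (median 12.6) in control tumours, and Gzma was at 0 in all 23. The 2 cytotoxic and the 2 regulatory T cell markers above the filter had negative log2 fold changes, with medians of -0.38 and -0.22. Of 6 T cell markers above the filter, Cd8a included, 5 were positive and 1 negative (median 0.35). None in these 3 lists had an unadjusted p under 0.05. How much of the members' values came from these cells was not tested, and relations to some of the sums are given below.

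Whether the same tumours were high in all 5 genes was read from the rank of each tumour by CPM, 1 being the highest of 23. No tumour was among the 6 highest in all 5. Abemaciclib tumours 3 and 10 were among the 6 highest in 4, with ranks of 2 and 1 for Cxcl9, 2 and 1 for Cd274, 1 and 3 for Lag3 and 5 and 1 for Cd8a. For Foxp3 they ranked 14 and 19. Those Foxp3 ranks rest on 6 and 3 reads, beside a median of 6 over the 23 tumours. By the sum of 7 other regulatory T cell markers, tumour 10 was 2nd of 23 at 39.0 CPM and tumour 3 was 17th at 27.0 CPM, in a range of 19.3 to 39.0 CPM (median 28.0) in abemaciclib tumours and 23.7 to 50.6 CPM (median 32.3) in control tumours. Most of that sum was Ikzf2 and Tnfrsf18, at means of 13.3 and 12.9 CPM over the 23 tumours. Il2ra, Icos, Tnfrsf4, Ccr8 and Ctla4 averaged 1.97, 1.31, 0.49, 0.46 and 0.17 CPM, so these ranks say little of them.

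Abemaciclib tumour 4 and control tumour 10 lay above the median of the 23 in all 5 genes, with ranks of 3 to 7 and 5 to 9. Above the median in 4 genes were 4 more abemaciclib tumours and 1 more control tumour. At the other end, 2 abemaciclib tumours, 1 and 8, and 2 control tumours, 1 and 3, were above the median in 0 genes. Control tumour 1 was the lowest of all for Cxcl9, Lag3, Cd8a and Foxp3, and was 13 for Cd274.

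**Figure D4:**
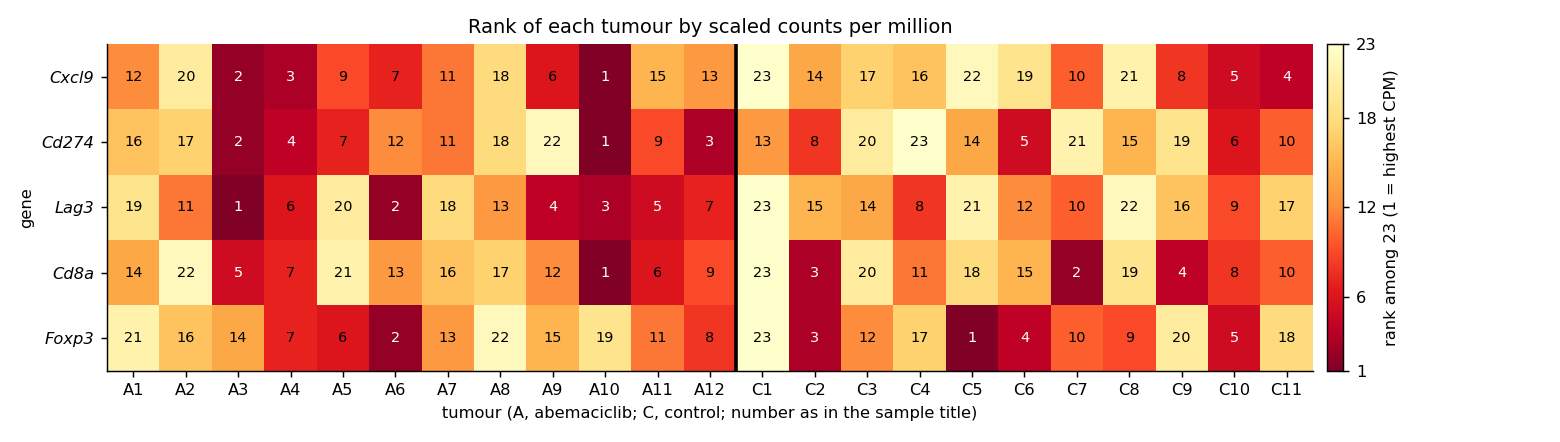
Rank of each tumour (x axis, abemaciclib left of the line, control right of it) by CPM for each gene (y axis), with 1 and dark red for the highest of 23. Abemaciclib tumours 3 and 10 rank 1 to 5 in the upper 4 rows and 14 and 19 for Foxp3, where control tumour 5 ranks first.

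Over the 23 tumours, 3 of the 10 pairs of members varied together by Spearman's rho of log2 CPM, with permutation p-values adjusted over the 10 pairs. These were the 3 pairs among Cxcl9, Lag3 and Cd8a. The share of all pairs of panel genes that vary together was not computed. Whether 3 of 10 is more than among other panel genes was therefore not tested. For Cxcl9 and Cd8a rho was 0.66 (permutation p = 8.70e-04, adjusted p = 0.00870) and Pearson's r was 0.69 (permutation p = 1.20e-04, adjusted p = 0.00100). For Cxcl9 and Lag3 rho was 0.57 (permutation p = 0.00564, adjusted p = 0.0188) and r was 0.67 (permutation p = 2.00e-04, adjusted p = 0.00100). For Lag3 and Cd8a rho was 0.58 (permutation p = 0.00411, adjusted p = 0.0188) and r was 0.60 (permutation p = 0.00243, adjusted p = 0.00810).

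Without the 2 tumours farthest from the median of Cxcl9, which were tumours 3 and 10, r was 0.62 for Cxcl9 with Cd8a and 0.57 for Cxcl9 with Lag3. Without control tumour 1 and abemaciclib tumour 3, the farthest for Lag3, r was 0.49 for Lag3 with Cd8a. With tumours 3 and 10 left out, the number of pairs past the threshold was 0, with rho of 0.59, 0.44 and 0.51 for the 3 pairs (adjusted p = 0.0605, 0.119 and 0.0639 by permutation). It was 1 without tumour 10 alone and 1 without control tumour 1 alone. The pair of Cxcl9 and Cd8a missed the threshold in 1 of 30 alternatives, that without tumours 3 and 10, where its rho of 0.59 was near the 0.66 over all tumours.

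Within the groups, rho for Cxcl9 and Cd8a was 0.64 in the 12 abemaciclib tumours (permutation, adjusted p = 0.0984) and 0.76 in the 11 control tumours (permutation, adjusted p = 0.0857). For Cxcl9 and Lag3 it was 0.56 in abemaciclib tumours and 0.48 in control tumours, and for Lag3 and Cd8a 0.74 in abemaciclib tumours and 0.50 in control tumours. All 3 were positive in both groups, but most fell when 2 tumours were left out. Without the 2 tumours of the group farthest for Cxcl9, its rho with Cd8a was 0.37 in abemaciclib and 0.63 in control tumours. Its rho with Lag3 was then 0.30 in abemaciclib and 0.067 in control tumours. Without the 2 farthest for Lag3, its rho with Cd8a was 0.67 in abemaciclib and 0.17 in control tumours. By rho 0 pairs passed within either group, while by Pearson's r 3 passed in abemaciclib tumours and 1 in control tumours, against 4 over all 23. With the group means subtracted, 3 pairs passed by rho over the 23 tumours.

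Cd274 followed the other members less closely in these data. With Cxcl9 it had a rho of 0.40 (permutation p = 0.0600, adjusted p = 0.150) and an r of 0.57 (permutation p = 0.00419, adjusted p = 0.0105), and r was 0.22 without tumours 3 and 10, so that relation rests on them. Within the groups its rho with Cxcl9 was 0.54 in abemaciclib tumours and 0.055 in control tumours, and that difference was not tested. Its rho with Cd8a was 0.66 in abemaciclib tumours (permutation, adjusted p = 0.0984) and 0.0091 in control tumours (permutation, adjusted p = 0.990).

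Foxp3 had a rho of -0.015 with Cxcl9, 0.057 with Cd8a, 0.11 with Lag3 and 0.35 with Cd274 (permutation, adjusted p = 0.948, 0.884, 0.789 and 0.209). With a median of 6 reads a tumour, counting error alone spreads its values, and a relation could be missed at this depth.

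**Figure D5:**
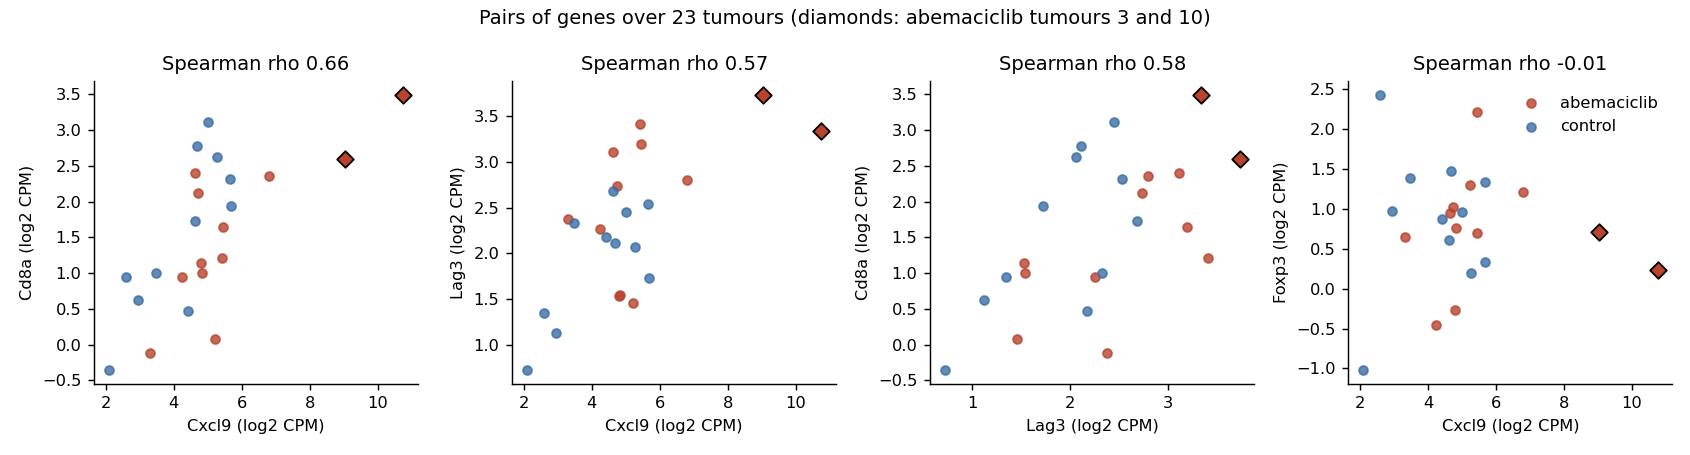
Log2 CPM of 1 gene against another (both axes) in 12 abemaciclib and 11 control tumours, with diamonds for abemaciclib tumours 3 and 10. Cxcl9 with Cd8a, Cxcl9 with Lag3 and Lag3 with Cd8a have rho of 0.66, 0.57 and 0.58, and in the last panel, Cxcl9 with Foxp3 at -0.01, the diamonds lie at the far right and near the middle of the Foxp3 range.

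The members were also set against the summed T cell, macrophage and dendritic cell markers, 15 relations added after the data were seen. None passed by rho after adjustment over the 15 (permutation, adjusted p = 0.104 at the lowest). For Cxcl9 and the dendritic cell sum rho was 0.51 (permutation p = 0.0139) and r 0.39 (permutation p = 0.0671), or 0.60 without the 2 tumours with sums farthest from the median. The dendritic cell sum was nearly all Irf8, Ly75 and Itgax. For Lag3 and the T cell sum rho was 0.49 (permutation p = 0.0177) and r 0.59 (permutation p = 0.00379, adjusted p = 0.0568), or 0.48 without the 2 farthest. For Cd8a and the T cell sum rho was 0.34 (permutation p = 0.109) and r 0.35 (permutation p = 0.104). Once Thy1 was dropped from the T cell list, Cd8a had a rho of 0.76 with it (permutation p = 2.00e-05, adjusted p = 3.00e-04). Cxcl9, at 0.48 with Thy1 in the list (permutation p = 0.0208), then had a rho of 0.52 (permutation p = 0.0122, adjusted p = 0.0695). Cd274 and Lag3 each had a rho of 0.36 (adjusted p = 0.148 by permutation), and Foxp3 one of 0.21 (adjusted p = 0.440). The list without Thy1 was made after the values were seen, and the adjustment over 15 relations does not count both versions. That list also holds Cd8b1, the other CD8 chain.

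Among 2958 other panel genes with a mean of at least 10 reads, the genes most like each member over the 23 tumours were ranked by rho, as a description. For Cxcl9 they were Cxcl11 at 0.86, Itgae, the integrin chain CD103 of tissue T cells and dendritic cells, at 0.72, and Cxcl10 at 0.72. For Cd274 they were Isg15, an interferon-induced ubiquitin-like protein, at 0.81, Phf11b at 0.78 and Phf11d at 0.77. Phf11b and Phf11d are near copies, so how reads were divided between them is uncertain. Cxcl11, set aside by the filter of the main test, had a median of 7.5 reads in abemaciclib and 4 in control tumours. It reached a mean of 10 only through abemaciclib tumours 3 and 10, and its rho with Cxcl9 was 0.82 without them.

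For Cd8a the 3 genes were Pdcd1 at 0.75, Il2rb, a receptor chain for interleukins of T and natural killer cells, at 0.72, and Cd3g, a chain of the T cell receptor complex, at 0.72. For Lag3 they were Tgfb1i1, a focal adhesion adaptor, at 0.73, Stfa3, a cysteine protease inhibitor with near copies in the genome, at 0.73, and Nrg1, a ligand of ERBB receptors, at 0.71. Within the groups those of Lag3 were at 0.62, 0.80 and 0.90 in the 12 abemaciclib tumours and at 0.33, 0.46 and 0.45 in the 11 control tumours. For Foxp3 they were Rasgrp1, a Ras activator of lymphocytes, at 0.62, Ccl17, a ligand of the receptor CCR4, at 0.60, and Rps6ka3, a ribosomal S6 kinase, at 0.57. Stfa3 had 0 to 253 reads a tumour, and its mean of 18.5 reached 10 only through its highest tumour.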

How the data were processed

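Tumour RNA was measured with an Ion AmpliSeq custom panel of 3826 mouse genes, 1 short amplicon a gene, per the labels' protocols. The authors deposited raw, unnormalized counts per gene in 1 table, whose 23 columns were matched to samples by the description in the labels. Per the submitters' processing notes the genome build was mm10. How reads were aligned and counted, and where amplicons lie, is not given in the sources used here. Reads carry no molecular identifiers, so the floors given where a tumour had no read of a gene cover counting error only. The intervals of fold changes come from the edgeR fits and include the spread between tumours as well.

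Counts were tested with edgeR 4.0.16 in R 4.3.3 (filterByExpr, TMM scaling, glmQLFit and glmQLFTest, two-sided, no covariates, all 23 tumours), with Benjamini-Hochberg adjustment at 0.05. The filter kept 2925 genes and set 901 aside. Foxp3 was tested in the same fit without the filter. CPM use TMM-scaled totals, and log2 CPM a prior count of 2. Correlations have two-sided permutation p-values from 100000 resamples. The edgeR fit was tested on simulated data.

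Alternatives were other scalings and filters, DESeq2 1.42.0, limma-voom (limma 3.58.1) with quality weights, robust empirical Bayes, the tumour number as a block, and fits without each tumour or without abemaciclib tumours 3 and 10. Over 253 pairs of tumours, chi-square divided by its degrees of freedom was at least 18.4, so no library was a copy of another. The members, the lists and tumours 3 and 10 were chosen with earlier results of these data known. Named genes, apart from Ido1, are the members, up to 3 with the smallest p in each of 3 lists (CXCR3 axis, interferon gamma signalling, checkpoint), 8 fixed T cell and chemokine genes, and the 3 genes most like each member. Promoter sequences are from RefSeq, GRCm38.p6. That table held an entry for 4 of the 5 members, all but Lag3. Some genes of the panel are not reported here.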

Additional observations from a re-analysis of the deposited data

How the results depend on the processing

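Over 33 alternatives (31 for Foxp3), Cd274 and Lag3 kept their direction and stayed short of the threshold, and so did Cxcl9 except without abemaciclib tumour 2. The sign of Cd8a turned to -0.029 with library totals, -0.22 with limma-voom and -0.47 without tumours 3 and 10, and that of Foxp3 to 0.16 with limma-voom. Leaving out 1 tumour at a time gave -0.28 to 0.26 for Cd8a, -0.52 to 0.078 for Foxp3, 1.73 to 3.32 for Cxcl9, 0.38 to 0.77 for Cd274 and 0.71 to 0.94 for Lag3. The count of genes called was 0, and 1 with library totals, 60 with DESeq2, 127 with limma-voom, 93 without tumours 3 and 10, and 0 to 47 when 1 tumour was left out (47 without abemaciclib tumour 10, 30 without 2, 10 without 3 and 9 without control tumour 6). The cause was not tested. Without tumours 3 and 10, Socs1 was at -0.20. With limma-voom, Ctla4 was at 0.11. With 1 tumour left out, Cxcr3 ranged from -0.018 to 0.56, Ctla4 from -0.81 to 0.039 and Pdcd1 from -0.31 to 0.037.

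The number of member pairs past the threshold was 3, and 0 without tumours 3 and 10, 4 with raw counts or Pearson's r, and 1 to 3 when 1 tumour was left out. The Spearman correlation of Cxcl9 with Foxp3 turned to 0.014 with library totals, 0.097 with raw counts and 0.10 without tumours 3 and 10, and ranged from -0.16 to 0.10 with 1 tumour left out. In the same way Cd8a with Foxp3 ranged from -0.077 to 0.15 and Lag3 with Foxp3 from -0.022 to 0.23. Of the marker sums, Cd274 with T cell markers was at -0.13 without tumours 3 and 10 and ranged from -0.018 to 0.21, Cd8a with macrophage markers from -0.16 to 0.065, Foxp3 with T cell markers from -0.11 to 0.089 and Lag3 with macrophage markers from -0.16 to 0.071. Low counts limit Foxp3, Cd8a, Ifng, Cxcr3, Ctla4 and Il2ra.

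With the tumour number as a replicate block, Cxcl9 was at 1.63 (adjusted p = 0.277), Cd274 at 0.49, Lag3 at 0.78, Cd8a at -0.0035 and Foxp3 at -0.25, and 0 genes were called. The sample titles do not say whether the numbers pair the tumours. Deviations of same-numbered tumours correlated at -0.43 to 0.45, over 0.1 in 5 of 11 pairs. Of 11 abemaciclib tumours, 2 correlated best with their own number. Paired tumours need not correlate strongly, so these values cannot decide whether the numbers pair them.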
